A study of Drosophila melanogaster with 12 samples.

Results

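The 243 introns described here overlap an annotated exon of the fly genome and nothing else, out of 17817 introns in a table of intron retention from Drosophila melanogaster wing discs. The rule uses the annotation: an intron was taken when the overlap field of its name in the table was exactly known-exon, with no further term for a gene on the opposite strand. The rule itself reads no measured value. They lay in 170 protein-coding host genes, of which 121 held 1 such intron and RpL15 held the most, 7. Because alternative splice sites give overlapping introns, the 243 formed 187 separate loci, and 91 of them shared a locus with another, so they are not independent measurements.

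In the fly larva the wing imaginal disc is an epithelial sac that later makes the wing and a share of the thoracic body wall. The study asked how these cells respond when the gene ecd is silenced and what part of the response needs Xrp1. Discs were taken from L3 larvae 7 days after egg laying, 150 discs per sample, and total RNA depleted of ribosomal RNA was sequenced. All 3 groups carried the driver nub-Gal4, active in the wing pouch, and UAS-mRFP, a red fluorescent reporter, and the discs also held tissue in which the driver is not active. The control group (nub>mRFP) carried nothing more, the second (nub>mRFP; ecd-RNAi) carried an RNAi transgene against ecd, and the third (nub>mRFP; ecd-RNAi, Xrp1-RNAi) carried transgenes against both ecd and Xrp1. The driver acted without interruption up to dissection. Each group had 4 samples, called biological replicates in the labels, and p-values measure the spread between these samples.

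An intron is cut out of the precursor RNA by the spliceosome, and a transcript that still holds it is said to retain it. The protein Ecd binds Prp8, which sits at the heart of the spliceosome, while Xrp1 is a transcription factor induced by cellular stress. Many genes are annotated both with a transcript that removes a stretch as an intron and with another that keeps it as exon. In such a stretch a read inside the intron can come from an unspliced precursor or from the mature transcript that keeps it, and the retention ratio does not tell these apart.

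The expression table summed to between 26365262 and 32779354 normalized counts per library. The ecd transcript was not lower in the libraries labelled with ecd RNAi, at 1498 ± 110 normalized counts in control and 1653 ± 245 with ecd RNAi (SD, n = 4; limma adjusted p = 0.251), so the directions below rest on the labels. The Xrp1 transcript stood at 4812 ± 252 in control, 20882 ± 1745 with ecd RNAi and 5084 ± 772 with ecd plus Xrp1 RNAi (SD, n = 4; limma adjusted p = 3.52e-09 for ecd RNAi against control). The summed level of 12 listed fat body genes, of which 11 were in the table and Yp1 and Yp2 had means below 10, ranged from 1614 to 82957 in control, 1745 to 30434 with ecd RNAi and 2097 to 3310 with both RNAi transgenes. It was high in replicates 3 and 4 of the control and ecd RNAi groups. The 7 listed wing pouch genes, none of them at 0, summed to between 28234 and 43978 in every library. With ecd RNAi, 4 of 7 wing pouch genes, 4 of 5 notum genes and 5 of 8 genes of adult muscle precursors were called lower and none higher, beside 25.4% of all genes tested that were lower and 22.4% that were higher. Of 12 hemocyte genes 3 were higher and 4 lower, of 5 tracheal genes tested 2 and 2, of 4 glial genes and of 9 fat body genes tested 1 and 1, of 2 peripodial genes 0 and 1, and of 5 neuronal genes none in either direction. Whether these shifts in tissue markers contribute to the intron ratios was not tested.

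Each of the 243 introns lay wholly inside an annotated exon of the same strand. For 234, that exon belonged to a transcript of the same gene, and for 9 it belonged only to another gene. Among those 234, the covering exon was a first exon for 121 introns, an internal exon for 59, a last exon for 43, first in one transcript and internal in another for 6, and the single exon of a transcript for 5. In 186 cases the covering exon began and ended exactly with the exons on both sides of the intron, the arrangement of a retained intron. Of the 243, 136 lay in the 5′ UTR of the transcript that removes them, 88 in its coding region and 19 in its 3′ UTR. Coding sequence of any transcript of the host gene, covering or not, spanned 33 of them whole and 49 in part.

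Their median length was 161 nt, against 68 nt over all introns of the table, and they ranged from 51 to 2600 nt. The median was 104.5 nt for introns with no overlap of any kind. For the 576 introns that lie both over and near antisense genes it was 4067.5 nt. The first intron of a transcript made up 136 of the 243 introns, the second 29, intron 3 or 4 another 29 and intron 5 or later 49. They were spread over arms 3R (76), 2R (62), 3L (57), 2L (42) and chromosome 4 (6). The whole table of introns held 0 on the X chromosome, so the values over all introns leave that chromosome out. The base mean of the authors' test is a count signal per intron, and what it averages is not stated. It had a median of 43.3 for these introns and 37.8 for all introns, and ranged from 8.42 to 796 over these introns. The lowest of these counts leave little room for a call.

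The retention ratio runs from 0, where every transcript has the intron removed, to 1, where none has. The values printed are the authors' means per group; the 12 columns of single-sample ratios carry names that match no label, so no SD is given. The median of the authors' mean ratio over the 243 introns was 0.538 in control, 0.601 with ecd RNAi and 0.574 with ecd plus Xrp1 RNAi. Over all introns these medians were 0.0702, 0.0808 and 0.0789, and over the 5236 introns with no overlap of any kind 0.0660, 0.0713 and 0.0722. In the nearest comparable class, the 665 introns that overlap a known exon and lie near an antisense gene, they were 0.453, 0.558 and 0.536. The middle of the control distribution was wide, with quartiles at 0.237 and 0.913. In control, 65 of the 243 had a ratio of at least 0.9 and 18 a ratio under 0.1, against 67 and 20 with ecd RNAi and 68 and 18 with ecd plus Xrp1 RNAi.

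The control ratio was highest where most annotated transcripts keep the stretch. Where more than 50% of the transcripts that either remove or keep it are annotated to keep it, the median control ratio was 0.853 (82 introns). Where the share was exactly 50% it was 0.455 (100 introns), and under 50% it was nearly the same, 0.443 (52 introns). For the 9 introns that no transcript of their own gene keeps, it was 0.0459. Across the 234 introns with such a share, Spearman's rho between the share and the control ratio was 0.40, a description over introns that share libraries and in part loci. Length (rho 0.07, n = 243) and intron number (rho 0.03, n = 243) showed little relation to the control ratio.

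Of the 10 introns with a control ratio of 1, the 5 with the highest base mean lay in Paip1, whose product binds poly(A)-binding protein, simj, a subunit of the NuRD chromatin complex, Gprk1, a kinase of G protein-coupled receptors, Nup188, a nucleoporin, and Fas1, an adhesion protein. Their ratios were 1 with ecd RNAi as well and at least 0.998 with ecd plus Xrp1 RNAi. No removal of these annotated introns was seen in the control group mean.

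With ecd RNAi the ratios were mostly higher than in control, by little. The difference of the authors' mean ratios, ecd RNAi minus control, had a median of 0.0182 over the 243 introns, with quartiles at -0.00622 and 0.0621, and 161 of 243 (66.3%) were above 0. Over all introns the median was 0.00941 and 64.0% were above 0, so the share that was higher was close to that of the table as a whole. In the 665 introns that also lie near an antisense gene the median was 0.0257, and 71.3% were above 0. In the classes that also overlap an antisense gene it was 0.0215 (89 introns, 68.5% above 0) and 0.0176 (195 introns, 69.2%). Over the 243 introns the differences ranged from -0.178 to 0.441. At least 0.05 was gained by 83 introns and lost by 24, beside 2475 and 875 of all 17817 introns. Of all introns, 11991 had a control ratio under 0.1, so a fixed step of 0.05 does not mean the same in both sets.

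With ecd plus Xrp1 RNAi against control the median difference was 0.0141 (all introns 0.00701), and 168 of 243 (69.1%) were above 0, against 61.2% of all introns. Both contrasts use the same control samples. Between the RNAi groups, ecd plus Xrp1 RNAi minus ecd RNAi, the median difference was -0.00403 (all introns -0.00195), and 96 of 243 (39.5%) were above 0, against 46.5% of all introns.

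**Figure D1:**
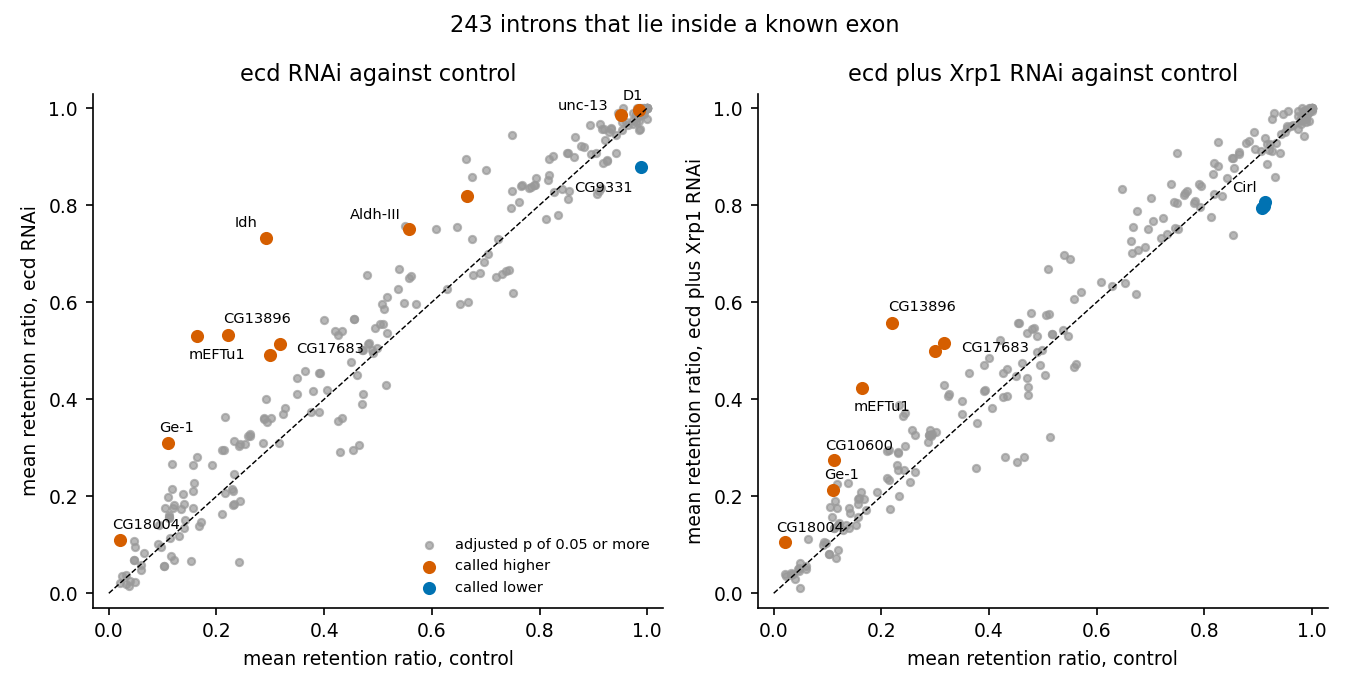
Each point is 1 of the 243 introns, with the authors' mean retention ratio in control on the x axis and that with ecd RNAi (left) or ecd plus Xrp1 RNAi (right) on the y axis; the dashed line marks equality. Most points lie near the line, Idh stands farthest above it on the left at 0.292 against 0.733, and on the right it is not among the called introns.

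Of the 243 introns, 12 were called with ecd RNAi against control in the authors' deposited table, where called means an adjusted p under 0.05. That is 4.94%, beside 2.32% of all 17817 introns. In the class that also lies near an antisense gene it was 67 of 665, or 10.1%, and in the classes that also overlap an antisense gene 7 of 89 and 12 of 195. The ratio was higher in 11 (background 2.18%) and lower in 1 (background 0.14%). They lay in 10 host genes and 11 loci. With ecd plus Xrp1 RNAi against control the authors' deposited table called 10, or 4.12% (background 1.26%), 7 of them higher (1.19%) and 3 lower (0.0674%), in 7 host genes. Between the 2 RNAi groups it called 2, or 0.823% (background 0.208%), both lower with ecd plus Xrp1 RNAi (0.129%), and 0 higher (0.0786%). In the class that also lies near an antisense gene, 28 of 665 (4.21%) were called with ecd plus Xrp1 RNAi against control. Between the RNAi groups 5 of these 665 (0.752%) were called. In the classes that also overlap an antisense gene these contrasts called 3 and 2 of 89, and 2 and 6 of 195. The shares were not tested against those of other introns. The authors' log2 fold changes lie closer to the log2 ratio of odds (median distance 0.04) than to that of the ratios (0.21), over 199 introns with ratios from 0.02 to 0.98, so near 1 a small difference can carry a large fold change. All log2 fold changes below are written as the first-named RNAi group over the group it is compared with, which turns the sign of the deposited column.

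Of the 11, 6 were first introns under 100 nt. The first intron of mEFTu1, which encodes the mitochondrial translation factor Tu (FBgn0024556; 2R:13507659-13507714, plus strand, BDGP6; 56 nt, 5′ UTR), had authors' mean ratios of 0.164 in control, 0.531 with ecd RNAi and 0.423 with ecd plus Xrp1 RNAi. In the authors' deposited table this was a log2 fold change of 2.53 with ecd RNAi (adjusted p = 1.98e-15) and of 1.89 with ecd plus Xrp1 RNAi (adjusted p = 9.99e-08). The groups with RNAi were thus both above control, and between them the adjusted p in the authors' deposited table was 0.661. The gene has 2 annotated transcripts, of which 1 removes the intron and the other is a single exon. The first intron of Ge-1, a scaffold protein of mRNA decapping (FBgn0283682; 2L:11100575-11100657, minus strand; 83 nt, 5′ UTR), moved from 0.109 in control to 0.310 and 0.213. Its log2 fold changes in the authors' deposited table were 1.85 with ecd RNAi (adjusted p = 1.39e-06) and 1.13 with ecd plus Xrp1 RNAi (adjusted p = 0.0326).

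CG17683, which encodes a predicted assembly factor of cytosolic iron-sulfur proteins (FBgn0262115; 2R, plus strand), held 2 called introns of 1 locus. They share their start at 4131269 and end at 4131346 (78 nt) and 4131321 (53 nt). The longer had mean ratios of 0.317, 0.513 and 0.515 and the shorter 0.299, 0.492 and 0.4998 in control, ecd RNAi and ecd plus Xrp1 RNAi. The authors' deposited table gave adjusted p = 0.0254 and 0.0348 with ecd RNAi and 0.0175 and 0.0172 with ecd plus Xrp1 RNAi. The first intron of CG13896 (FBgn0035159; 3L:711688-711744, minus strand; 57 nt) stood at 0.221, 0.532 and 0.557, with adjusted p = 0.0120 and 0.0110 in the authors' deposited table, on a base mean of 21.9. In these genes the 2 RNAi groups were nearly level and both above control.

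The 2 introns called between the RNAi groups stood high with ecd RNAi and near control with ecd plus Xrp1 RNAi. The first intron of Idh, the NADP-dependent isocitrate dehydrogenase (FBgn0001248; 3L:8358716-8358849, minus strand; 134 nt, 5′ UTR), had mean ratios of 0.292, 0.733 and 0.324. In the authors' deposited table its log2 fold change was 2.84 with ecd RNAi against control (adjusted p = 9.42e-11), 0.30 with ecd plus Xrp1 RNAi against control (adjusted p = 0.867) and -2.54 between the RNAi groups (adjusted p = 5.1e-08). Of the 9 annotated transcripts of Idh, 1 removes the intron and 3 keep the stretch in a first exon. The other lay in unc-13, a gene needed for the priming of synaptic vesicles (FBgn0025726; chromosome 4, minus strand). Its intron 4 (902235-902306; 72 nt, coding region) had mean ratios of 0.951, 0.986 and 0.950, a small difference near 1 that the authors' deposited table gives as a log2 fold change of 1.85 (adjusted p = 0.00137) with ecd RNAi against control and of -1.90 (adjusted p = 0.00601) between the RNAi groups.

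The neighbouring intron 3 of unc-13 (902583-902825; 243 nt) went from 0.666 in control to 0.818 with ecd RNAi (adjusted p = 0.0159 in the authors' deposited table) and was at 0.702 with ecd plus Xrp1 RNAi. The first intron of Aldh-III, an aldehyde dehydrogenase (FBgn0010548; 2R:7473844-7473915, minus strand; 72 nt, 5′ UTR), showed 0.558, 0.750 and 0.606, with adjusted p = 0.0135 and 0.871 against control in the authors' deposited table. For both introns the adjusted p between the RNAi groups in the authors' deposited table was 0.447 and 0.385, so the difference between these groups was not called. The second intron of D1, an AT-hook protein that binds satellite DNA (FBgn0000412; 3R:9239909-9240045, minus strand; 137 nt, 5′ UTR), was called at a difference of 0.00999, from 0.985 to 0.995 (adjusted p = 0.0456 in the authors' deposited table), on a base mean of 556, the highest of the called introns.

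The 1 intron called lower with ecd RNAi was the second of CG9331, a predicted glyoxylate or hydroxypyruvate reductase (FBgn0032889; 2L:20825513-20825667, plus strand; 155 nt, coding region). Its mean ratio was 0.988 in control, 0.879 with ecd RNAi and 0.977 with ecd plus Xrp1 RNAi. For ecd RNAi against control the authors' deposited table gave a log2 fold change of -3.51 (adjusted p = 7.21e-04). Between the RNAi groups the adjusted p in the authors' deposited table was 0.0808, so that difference was not called. Of the 12 annotated transcripts of CG9331, 2 keep the stretch, and coding sequence of the gene, from any of its transcripts, lies over part of it.

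The 3 introns called lower with ecd plus Xrp1 RNAi were overlapping forms of intron 3 of Cirl, the fly latrophilin, an adhesion receptor (FBgn0033313; 2R, plus strand). They end together at 8616326 and start at 8616004, 8616079 and 8616157, so they count as 1 locus. Their mean ratios were 0.907 to 0.913 in control, 0.822 to 0.835 with ecd RNAi, and from 0.794 to 0.806 when Xrp1 was targeted too. In the authors' deposited table the adjusted p was 0.0110 to 0.0184 with ecd plus Xrp1 RNAi and 0.0690 to 0.0725 with ecd RNAi, just outside the threshold. Also called with ecd plus Xrp1 RNAi was the first intron of CG10600 (FBgn0032717; 2L:18838796-18838882, minus strand; 87 nt), at 0.112, 0.161 and 0.274 (adjusted p = 0.0435 in the authors' deposited table). With ecd RNAi alone that intron had an adjusted p of 0.689 in the authors' deposited table, and the difference between the RNAi groups (adjusted p = 0.730) was not called.

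**Figure D2:**
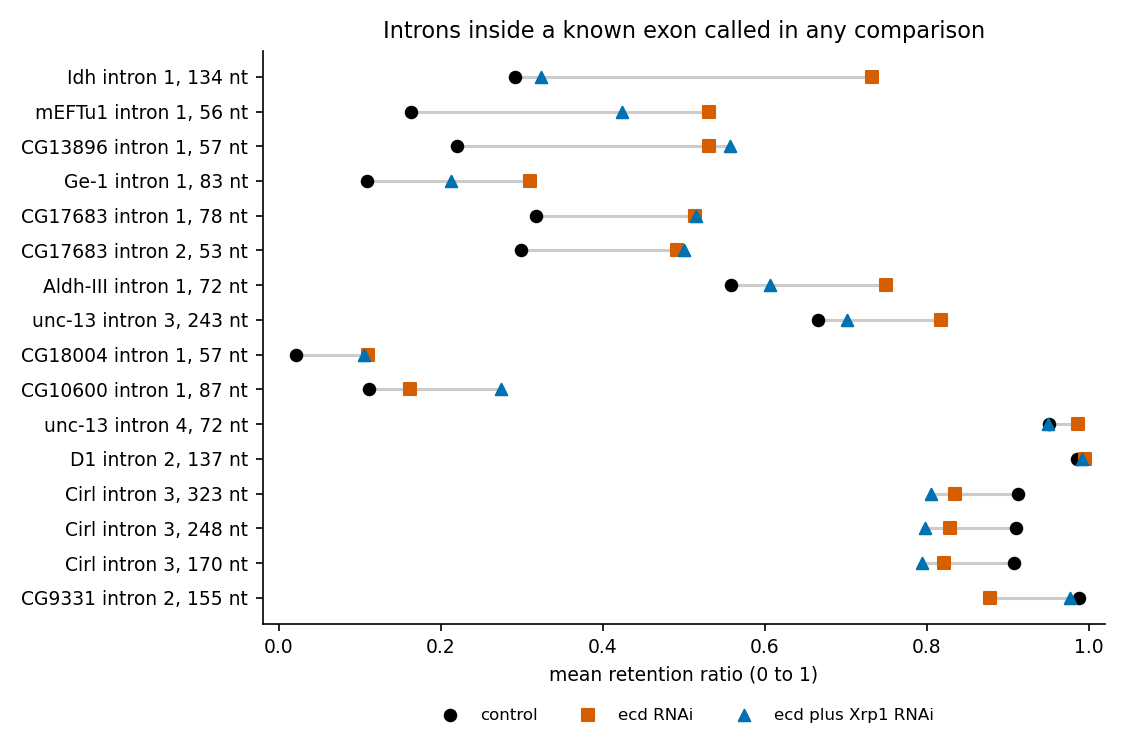
The authors' mean retention ratio (x axis, 0 to 1) in the 3 groups is shown for the 16 introns called in any comparison, 1 row per intron with the gene, the intron's number and its length. In Idh the point for ecd plus Xrp1 RNAi (0.324) lies near control (0.292), and in CG13896 (0.557) and CG17683 (0.4998 and 0.515) it lies at the ecd RNAi point.

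Just outside the threshold with ecd RNAi, at an adjusted p of 0.0548 in the authors' deposited table, were the first introns of CG33095, of CG33096 and of MEP-1. The introns of CG33095 and CG33096 share their start, and the ratio of the former was 0.674, 0.859 and 0.787 in the 3 groups. That of MEP-1 was 0.117, 0.267 and 0.225. Nop60B, the pseudouridine synthase of H/ACA particles, had 2 overlapping introns in its 3′ UTR with adjusted p = 0.0831 for ecd plus Xrp1 RNAi in the authors' deposited table, with ratios of 0.464, 0.306 and 0.281 for the longer and 0.453, 0.295 and 0.270 for the shorter. These genes, like Skel below, were chosen after their values were seen.

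By length, the gain with ecd RNAi was larger in the shorter introns, but so it was in the table as a whole. The median difference, ecd RNAi minus control, was 0.0483 for the 29 introns under 60 nt, 0.0241 for the 66 of 60 to 99 nt, 0.0129 for the 131 from 100 to under 1000 nt and 0.00596 for the 17 of 1000 nt or more. In all introns the same classes gave 0.0158, 0.0124, 0.00349 and 0.00277, and in introns without any overlap 0.0167, 0.00982, -0.00241 and 0.00123. The ratio was higher in 20 of 29, 49 of 66, 80 of 131 and 12 of 17 of the introns inside a known exon. The authors' deposited table called 4 higher in each of the 2 shorter classes, 3 higher and 1 lower from 100 to under 1000 nt, and 0 of 17 above. Over all introns the same table called higher 103 of 4227, 213 of 6943, 70 of 4262 and 2 of 2385, from the shortest class to the longest. No test of the difference between classes was made, since the ratios per sample could not be tied to the groups. With ecd plus Xrp1 RNAi the medians were 0.0346, 0.00653, 0.0192 and 0.00500, which do not fall steadily with length.

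**Figure D3:**
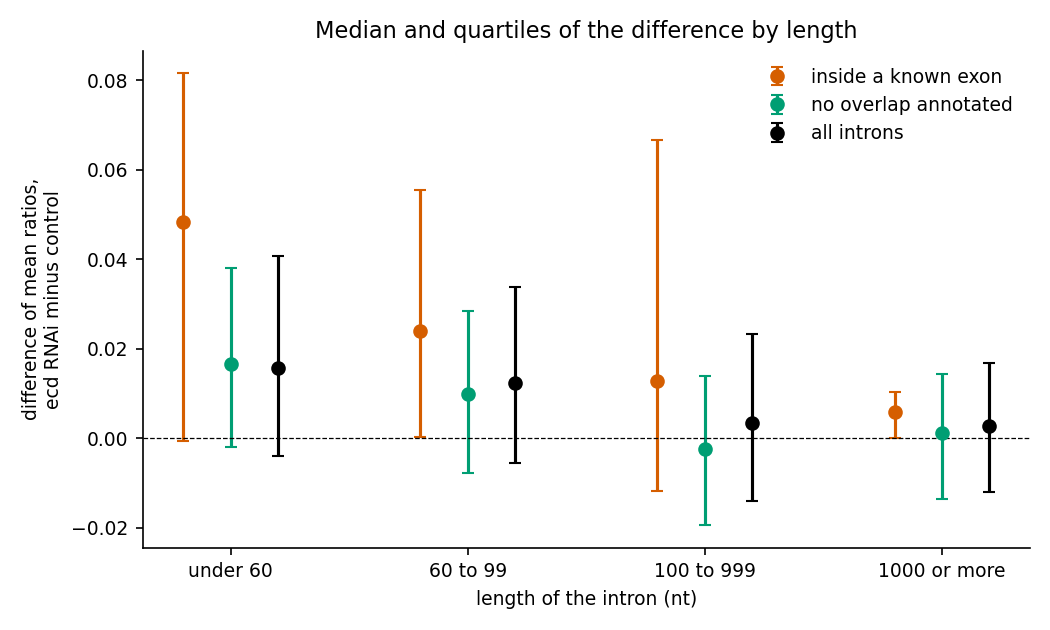
Points give the median, and bars the quartiles, of the difference of the authors' mean ratios, ecd RNAi minus control (y axis), by intron length in nt (x axis), for the 243 introns inside a known exon, the introns with no overlap annotated and all introns. The median for introns inside a known exon falls from 0.0483 under 60 nt to 0.00596 at 1000 nt or more, and its quartiles overlap those of the other 2 sets in every class.

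The level itself did not rise steadily with length. The median control ratio was 0.299 under 60 nt, 0.611 at 60 to 99 nt, 0.512 from 100 to under 1000 nt and 0.744 at 1000 nt or more. With ecd RNAi the medians were 0.501, 0.709, 0.596 and 0.665, and with ecd plus Xrp1 RNAi 0.4998, 0.711, 0.558 and 0.844. In the longest class the median over introns was lower with ecd RNAi than in control while 12 of its 17 introns had a higher ratio, because a difference of medians is not the median of the differences.

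By position, the gain was larger in introns near the start of the transcript. The median difference with ecd RNAi was 0.0437 for 136 first introns, of which 96 were above 0, 0.0223 for 29 second introns (21 above 0), 0.0103 for 29 introns in place 3 or 4 (20 above 0) and 0.0000 for 49 introns in place 5 or later (24 above 0). All introns of the table gave 0.0167, 0.0106, 0.00783 and 0.00319 in the same order. Of the introns inside a known exon, 7 first introns, 2 second introns and 2 introns in place 3 or 4 were called higher in the authors' deposited table, and 0 of the 49 in place 5 or later. Over all introns the same table called, in either direction, 213 of 5052 first introns, 86 of 3532 second introns, 65 of 4339 in place 3 or 4 and 49 of 4894 later ones, so the share fell with position there too. The shares inside a known exon were not tested against these. Spearman's rho with the difference was -0.23 for intron number and -0.13 for length (n = 243, introns that share libraries). The median control ratios were 0.510 for first, 0.449 for second, 0.789 for place 3 or 4 and 0.539 for place 5 or later.

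Length and position were partly separate. First introns had similar median differences below and from 100 nt, 0.0442 (44 introns) and 0.0413 (92 introns), while later introns had 0.0246 (51 introns) and 0.00104 (56 introns). The authors' deposited table called higher 6 of the 44 short first introns and 1 of the 92 longer ones. Later introns gave 2 of 51 and, at 100 nt or more, 2 higher and 1 lower of 56. Over all introns the same table called higher 157 of 2446 short and 48 of 2606 longer first introns, and 159 of 8724 short and 24 of 4041 longer later ones. These shares were not tested against each other.

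**Figure D4:**
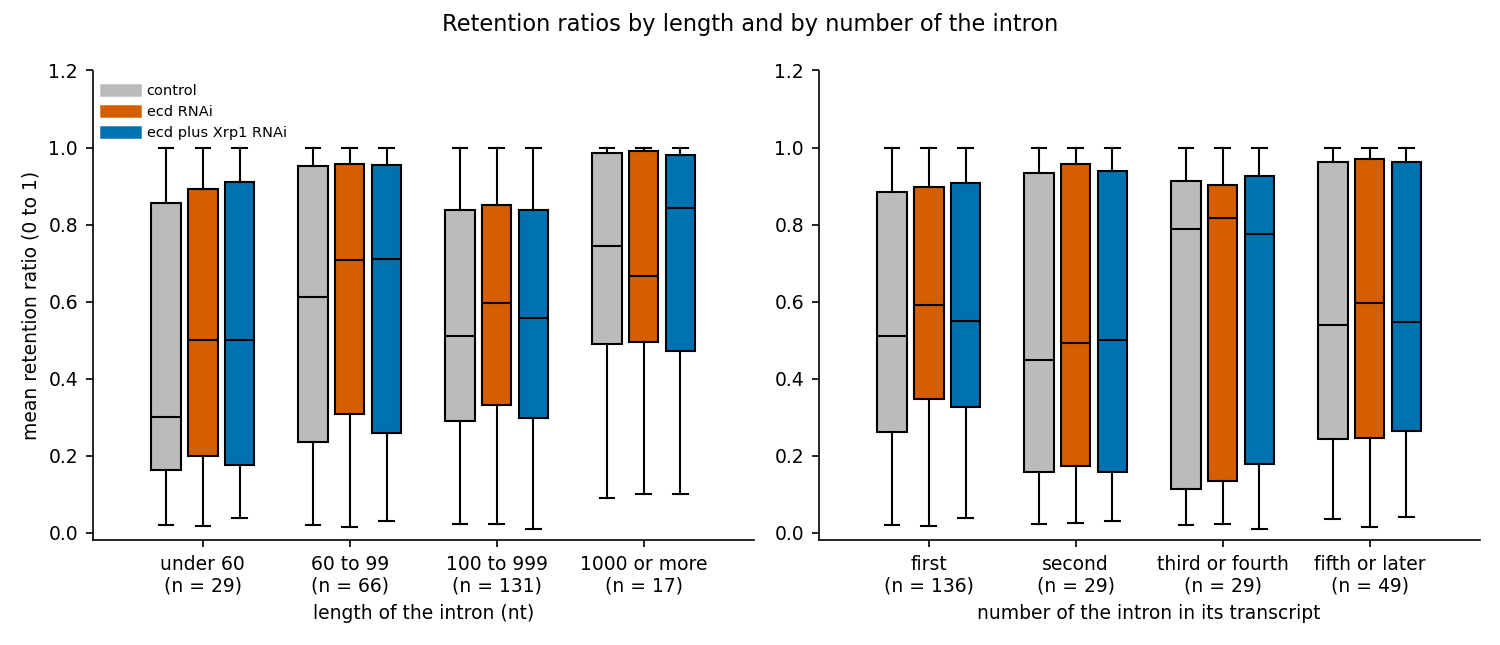
Boxes give the median and quartiles, and whiskers the range within 1.5 times the interquartile range, of the authors' mean retention ratio (y axis, 0 to 1) by intron length (left) and by the number of the intron in its transcript (right) in the 3 groups. The boxes of the groups overlap widely in every class, and the lowest control median is that of introns under 60 nt, at 0.299.

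The place of the intron and the kind of covering exon showed the same order as position. The median difference with ecd RNAi was 0.0403 in the 5′ UTR (98 of 136 above 0), 0.00994 in the coding region (55 of 88) and -6.01e-04 in the 3′ UTR (8 of 19). Introns inside a first exon had 0.0449 (85 of 121 above 0), those inside an internal exon 0.0191 (41 of 59) and those inside a last exon 0.00116 (23 of 43), and 0 of the last-exon introns were called in the authors' deposited table. By the share of transcripts that keep the stretch, the median difference was 0.0543 where it was 50% (79 of 100 above 0), 0.00745 below that (28 of 52) and 0.00423 above it (48 of 82). With ecd plus Xrp1 RNAi against control these 3 medians were 0.0291, 0.0110 and 0.00688. In the same order, 19 of 100, 8 of 52 and 38 of 82 introns already had a control ratio of at least 0.9. Such introns have little room to rise, and whether this bears on the differences between these classes was not tested. The largest fall of a mean ratio with ecd RNAi, which was not called, lay in a last exon: intron 7 of Skel went from 0.242 in control to 0.0647 with ecd RNAi, on a base mean of 8.96, and had an adjusted p of 0.194 in the authors' deposited table.

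In 5 cases the intron was covered only by a microRNA gene that fills the intron, as in mirtrons, where splicing releases the hairpin. They were 55 to 71 nt long and had low control ratios, from 0.0208 to 0.129. The intron of CG18004 that holds mir-1008 (FBgn0033566; 2R:10885533-10885589, plus strand; 57 nt) rose from 0.0208 to 0.111 with ecd RNAi and 0.105 with ecd plus Xrp1 RNAi, with adjusted p = 0.0363 and 0.0313 in the authors' deposited table. The intron of kuz, an ADAM metalloprotease, with mir-2489 stood at 0.0469, 0.108 and 0.0524 (adjusted p = 0.183 with ecd RNAi in the authors' deposited table). That of Lerp, a receptor of lysosomal enzymes, with mir-1012 stood at 0.0927, 0.141 and 0.105. The intron of SKIP with mir-1010 (0.129, 0.118 and 0.130) and that of tex, of the THO complex, with mir-4918 (0.0317, 0.0385 and 0.0409) were not called either. The other 4 of the 9 introns without a covering exon of their own gene lay in CG7369 (2 introns), Hyls1 and mod(mdg4), with control ratios from 0.0206 to 0.0490.

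RpL15, a protein of the large ribosomal subunit, held 7 introns of 58 to 324 nt at its 5′ end, all first introns that overlap each other. Their mean ratios ran from 0.286 to 0.749 in control, 0.309 to 0.830 with ecd RNAi, and from 0.312 to 0.804 when Xrp1 was targeted too. None was called in the authors' deposited table. Genes of small nucleolar RNAs lie in or overlap 6 of the 243 introns, 3 of RpL15 and 3 of Nop60B, and reads from these RNAs cannot be told apart from retention. With ecd RNAi the ratio was higher than in control in the 3 of RpL15 and lower in the 3 of Nop60B.

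The hosts were 170 of the 10179 genes tested for expression, so a list of this kind may hold none, and no reading is made of the counts below. Of 36 listed SR and hnRNP splicing regulators, 3 held 6 of the 243 introns, and 0 of these were called in any comparison in the authors' deposited table. They were B52, an SR protein (0.0602, 0.0481 and 0.0561 in the 3 groups), mbl, the fly muscleblind (0.653, 0.596 and 0.639), and mub, a KH-domain protein, whose 4 overlapping introns stood at 0.470 to 0.570, 0.501 to 0.596 and 0.536 to 0.621. No listed core protein of the spliceosome, gene of the Xrp1 and stress response, of nonsense-mediated decay or of sex determination held one, and neither did ecd, Xrp1, Irbp18 or Prp8. A listed gene on the X chromosome could not hold one, since 0 introns of that chromosome were in the table. Among 3 hosts from the cytoskeleton and adhesion list, Tm1, a tropomyosin, stood at 0.0237, 0.0362 and 0.0356, scrib at 0.997, 0.995 and 1, and Fas3 at 1 in every group. H (Hairless), the antagonist of Notch signalling, held 2 introns, at 0.628, 0.627 and 0.633 and at 0.517, 0.537 and 0.534. Of the ribosomal proteins, RpL5 stood at 0.0314, 0.0181 and 0.0368 and RpS26 at 0.985, 0.955 and 0.942. None of these was called.

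Expression of the host genes was measured per library. All 170 hosts were tested, and with ecd RNAi against control 49 were higher (background 22.4% of all 10179 genes tested) and 45 lower (background 25.4%) by limma at an adjusted p under 0.05. Together they were 55.3% of the hosts, beside 47.8% of all genes tested. With ecd plus Xrp1 RNAi against control 8 were higher (background 2.29%) and 2 lower (background 2.1%), or 5.88% (background 4.39%). That number higher rests on single libraries: it was 3 without control replicate 1 or 2 or ecd plus Xrp1 RNAi replicate 3, 4 without control replicate 3, 5 without control replicate 4 or ecd plus Xrp1 RNAi replicate 4, and 2 without ecd plus Xrp1 RNAi replicate 2. The number lower was 1 without control replicate 1 or ecd plus Xrp1 RNAi replicate 1 or 3, and 0 without control replicate 3 or 4 or ecd plus Xrp1 RNAi replicate 2. Between the RNAi groups 54 were higher (background 26.7%) and 42 lower (background 20.6%) with ecd plus Xrp1 RNAi, or 56.5% (background 47.3%). When replicates 3 and 4 of control and ecd RNAi, rich in fat body transcripts, were left out, 32 were higher there. The median log2 change over hosts was 0.04 with ecd RNAi against control, -0.04 over all genes.

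Across hosts, the change of expression showed little relation to the change of retention. Spearman's rho between the log2 change of the host and the mean difference of its introns was 0.01 with ecd RNAi against control, 0.09 with ecd plus Xrp1 RNAi against control and 0.06 between the RNAi groups, each over 170 hosts that share libraries. With ecd RNAi the median difference of ratios was 0.0148 for 65 introns in hosts called higher, 0.0314 for 67 in hosts called lower and 0.0128 for 111 in hosts not called. Introns called higher in the authors' deposited table lay in hosts called higher (4 introns), lower (5) and not called (2). In whole discs, fewer cells of a type and less RNA per cell cannot be told apart.

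Idh expression was 13577, 13429, 11807 and 12221 normalized counts in the control libraries, 10531, 10909, 9119 and 9724 with ecd RNAi, and 15271, 14490, 13379 and 13931 with ecd plus Xrp1 RNAi. The 4 ecd RNAi libraries were below every other library, and the log2 changes were -0.34 ± 0.07 against control (SE; limma adjusted p = 0.00164) and 0.50 ± 0.07 between the RNAi groups (limma adjusted p = 9.45e-05). The gene whose first intron gained most in ratio with ecd RNAi was thus lower in expression there. The unc-13 transcript was at 10486, 10810, 11848 and 12455 normalized counts in control, 61482, 59865, 60419 and 58303 with ecd RNAi, and 11607, 11777, 11485 and 14497 with ecd plus Xrp1 RNAi. The ecd RNAi libraries stood apart from all others, with a log2 change of 2.40 ± 0.08 (SE; limma adjusted p = 3.09e-10). The listed neuronal markers are given beside unc-13, a gene of neurons, and 0 of 5 were called in any comparison. Their summed level was 800 to 2394 in control, 817 to 2799 with ecd RNAi, and from 731 to 2726 when Xrp1 was targeted too. Whether the amount of neuronal tissue bears on the unc-13 level was not tested.

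In mEFTu1 the expression did not change detectably while the ratio did: 2729 ± 289 normalized counts in control, 2816 ± 272 with ecd RNAi and 2786 ± 115 with ecd plus Xrp1 RNAi (SD, n = 4; limma adjusted p = 0.688 with ecd RNAi). D1 fell from 15542 ± 1128 to 10214 ± 1145 with ecd RNAi (SD, n = 4; log2 change -0.61 ± 0.08 SE, limma adjusted p = 4.81e-05) and was at 15629 ± 700 (SD) with ecd plus Xrp1 RNAi. CG9331 fell from 1204 ± 135 to 999.9 ± 57.0 (SD, n = 4; limma adjusted p = 0.0131) and was at 1330 ± 65.0 with ecd plus Xrp1 RNAi. CG18004 fell by 0.31 on the log2 scale (limma adjusted p = 0.00336) and CG13896 rose by 0.52 (limma adjusted p = 3.77e-04) with ecd RNAi. Aldh-III changed by -0.11 (limma adjusted p = 0.220).

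Of the hosts named, 4 passed narrowly with ecd RNAi against control and lost the call when single libraries were left out. Ge-1 was higher by 0.20 ± 0.07 on the log2 scale (SE; limma adjusted p = 0.0301), not without control replicate 3 or 4 or ecd RNAi replicate 1, 2 or 3, nor with a replicate block over the 12 libraries (limma adjusted p = 0.0564; 0.0227 with the block over the control and ecd RNAi libraries alone). CG10600 was higher by 0.23 (limma adjusted p = 0.0291), not without control replicate 2 or 3 or ecd RNAi replicate 1, 2 or 3, nor without replicates 3 and 4 of both groups together, which were rich in fat body transcripts, nor with the block over 12 libraries (limma adjusted p = 0.0557; 0.0185 over the 2 groups alone). Cirl was lower, at -0.31 (limma adjusted p = 0.0327), not without control replicate 1, 2 or 4 or ecd RNAi replicate 3 or 4, nor without these same 4 libraries together, nor with the block over 12 libraries (limma adjusted p = 0.0565; 0.00517 over the 2 groups alone). CG17683 was lower, at -0.24 (limma adjusted p = 0.0229), not without control replicate 1 or 2. The highest adjusted p over the alternatives was 0.0873 for Ge-1, 0.0938 for CG10600, 0.106 for Cirl and 0.0708 for CG17683.

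**Figure D5:**
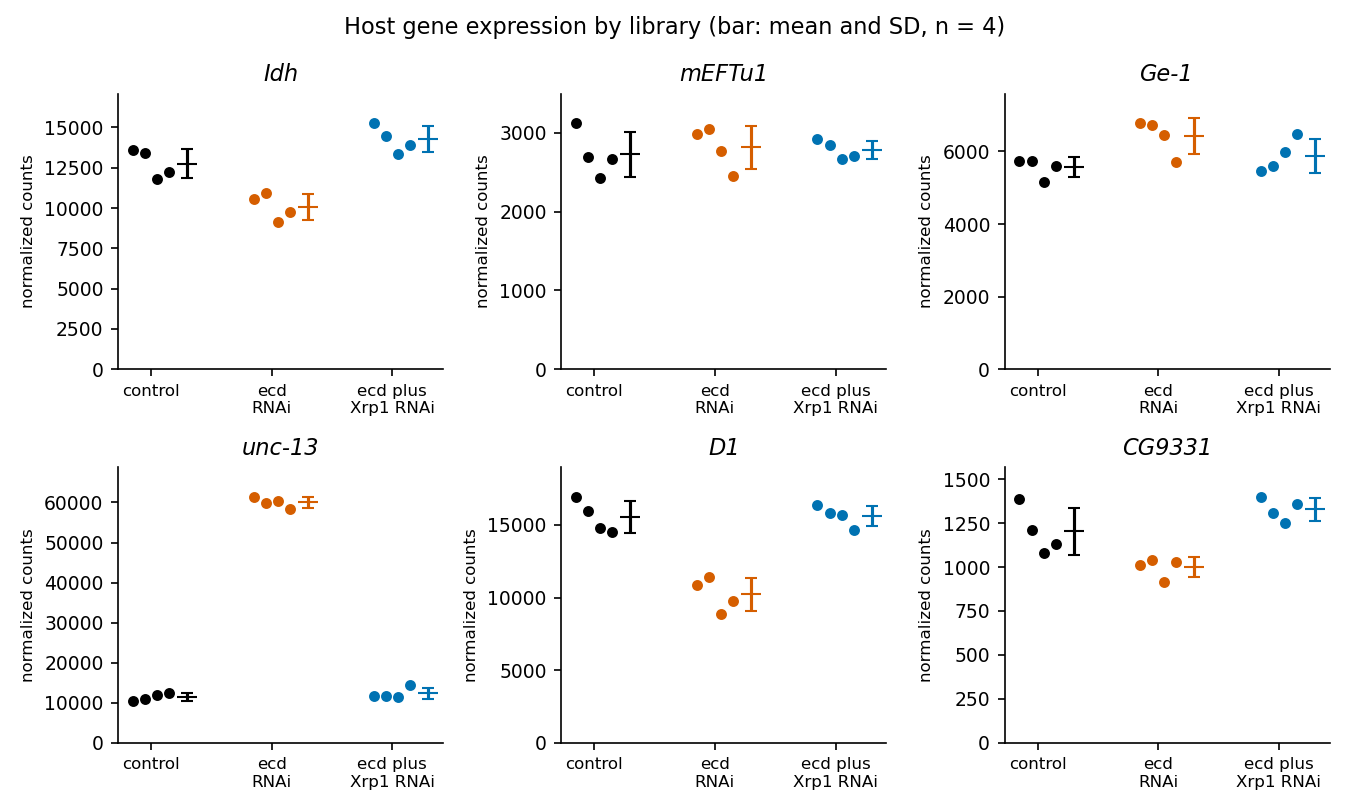
Each point is 1 library, in normalized counts (y axis, from 0), for 6 hosts of called introns in the 3 groups (x axis); the bar beside each group is the mean and SD of its 4 libraries. The ecd RNAi libraries of unc-13 lie between 58303 and 61482, those of Idh lie below all other libraries, and the groups of mEFTu1 overlap.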

How the data were processed

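Total RNA of 12 samples in 3 groups of 4 was measured, grouped by the sample titles. Gene expression is the authors' deposited table of DESeq2-normalized counts, a signal per gene. Intron retention is the authors' deposited table, in which the mean ratio per group is a fraction from 0 to 1, with log2 fold changes, base means (a count signal that is never negative; what it averages is not stated) and adjusted p-values from DESeq2, per the file headers. Per the submitters' processing notes, kallisto 0.46.1, DESeq2 1.34.0, cutadapt 3.5 and FastQC were used with build BDGP6, in an order that is not stated; the tool behind the retention ratios and the strand setting of counting are not given in the sources used here. The labels differ on single or paired reads. Ratios per sample stand in 12 columns whose names match no label, so they were not used, and planned limma fits on them could not be run. Depth in reads is unknown, so no counting interval is given.

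Introns were matched to the Ensembl annotation of BDGP6, and all 17817 matched an annotated intron; coordinates are 1-based. An intron counts as first, second and so on by its lowest number in any transcript. No sequence is printed. Genes averaging 10 or more normalized counts over all libraries (10179 genes) were transformed as log2(value + 1) and fitted with limma 3.58.1 in R 4.3.3, 1 term per group over 12 libraries, two-sided, with Benjamini-Hochberg adjustment over all genes. The fit was tested on simulated data. For 6 hosts the row equals that of a second gene. Summaries and figures used Python 3.11.15, pandas 2.3.3 and matplotlib 3.10.9.

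Named introns are, per comparison, up to 8 called higher and 8 called lower with the largest difference of ratios, at most 1 per gene, and the 5 with the highest control ratio (ties by base mean); other called introns and introns of listed genes are given beside them. The introns, gene lists and rules were chosen with earlier results of these data known. Same-numbered control and ecd RNAi libraries deviated together (correlations from 0.235 to 0.559), and a replicate block was run as an alternative. The main fit held no block. Differently numbered control and ecd RNAi libraries ran from -0.596 to 0.572, positive within replicates 1 and 2 and within 3 and 4. The deviation thus does not follow the number alone. Replicate numbers are those of the sample titles, which state no pairing. The submitters' own library numbers do not always match across groups under the same replicate number. With ecd plus Xrp1 RNAi, same-numbered libraries did not deviate together (-0.347 to -0.131). Alternatives covered thresholds, size minimums, pseudocounts, filters, quantile normalization, the replicate block, left-out libraries and the authors' deposited expression test.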

Additional observations from a re-analysis of the deposited data

Results flagged for a closer look

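Among the 12 host genes of called introns, 36 groups of 4 libraries were examined for a library far from the other 3, and 1 was found. Expression of unc-13 in replicate 4 of ecd plus Xrp1 RNAi was 14497 normalized counts, while the other 3 libraries of that group lay between 11485 and 11777. Chance alone marks about 1 in 20 such groups.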

How the results depend on the processing

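No paired analysis of introns was possible because the 12 columns of ratios per sample could not be tied to the labels or their replicate numbers; for the same reason the limma fits on ratios per sample, their left-out replicates and their block were not run. At an adjusted p under 0.01 in the authors' deposited table, 4 introns were higher with ecd RNAi against control (11 at 0.05), and with ecd plus Xrp1 RNAi against control 1 was higher (7 at 0.05) and 0 lower (3 at 0.05). Counting 1 intron per overlapping set, an alternative chosen after seeing the data, left 1 lower in the latter. A minimum difference of 0.05 left 1 of the 2 introns lower between the RNAi groups. The median difference with ecd plus Xrp1 RNAi against control was 0.00715 without first introns, against 0.0141.

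For host genes with ecd plus Xrp1 RNAi against control, the number higher (8) was 17 in the authors' deposited expression table, 4 without replicates 3 and 4 of control and ecd RNAi, rich in fat body RNA (chosen after seeing the data), and 2 to 6 when single libraries were left out; the number lower (2) was 7 in the authors' deposited expression table, 6 with quantile normalization, 1 with a filter on means above 0, 1 with the replicate block and 0 to 2 with single libraries left out. Leaving out the fat body-rich libraries gave 32 hosts higher between the RNAi groups (54). With ecd RNAi against control, leaving out single libraries gave 42 to 52 higher and 33 to 43 lower; between the RNAi groups, 45 to 56 and 36 to 51. The replicate block gave 50 higher and 43 lower with ecd RNAi (58 and 47 over the control and ecd RNAi libraries alone, chosen after seeing the data), 6 higher with ecd plus Xrp1 RNAi against control, and 54 and 42 between the RNAi groups. Besides the hosts Ge-1, CG10600 and Cirl, it changed no call of a named gene. Over the summary values, 120 alternatives kept the direction and the side of the threshold or stayed within 1.5 times, and 26 did not; over the named genes and introns, 538 kept the call, 39 lost it, 11 gained one and 0 reversed.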
